A study of Mus musculus with 6 samples.

Results

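The lysosomal genes described here are 35 mouse genes for enzymes inside the lysosome, proteins of its membrane, proteins that assist them, and the regulator Tfeb. They were taken as a list of symbols, and their probes were found through the RefSeq accession that each array probe carries. All 35 genes had at least 1 probe (45 probes in all), out of 20128 genes with a symbol on the array. Of these members 34 were tested, each on a probe well above background in all 6 hearts. Arsb, which removes sulfate from dermatan and chondroitin sulfate, was not tested because neither of its 2 probes was above background in every heart of a group.

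Hearts were taken from C57/B6 mice aged 8 weeks, and the RNA of each was measured on a 1-colour Agilent expression array of its own. Both groups carried floxed PHD2 and PHD3 alleles (PHD2/3f/f). The 3 control hearts had no Cre (Cre-/-) and the 3 others carried Cre (Cre+/-) and are called KO-labelled here. The labels name no Cre driver, inducer, deleted exon or sex, and they describe 2 different RNA kits, one of them for blood with globin removal. PHD2 and PHD3, encoded by Egln1 and Egln3, are oxygen-dependent hydroxylases that mark hypoxia-inducible factors for destruction.

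Lysosomes are acidic vesicles that break down proteins, glycans, glycogen and lipids delivered by endocytosis, phagocytosis and autophagy. Most of their enzymes are made as precursors, tagged with mannose 6-phosphate and sorted to the lysosome. TFEB and its relatives activate many lysosomal genes through a DNA element known as CLEAR, while mTORC1, a kinase at the lysosomal surface, keeps TFEB out of the nucleus. In the heart, loss of acid alpha-glucosidase (Gaa) causes the glycogen storage of Pompe disease and loss of Lamp2 causes Danon disease. Lysosomal enzymes are also abundant in macrophages.

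Because TFEB acts at such elements, the promoters of the members were searched for them. RefSeq promoters (GRCm38.p6, 250 bases before to 50 bases after each start) were matched for 31 of the 35 members. CACGTG and TCACGTGA read the same on both strands, and ACGTG was searched on both. The E-box CACGTG occurred in 12 of the 31 members (38.7%) and in 8.09% of 27025 genes. Its longer form TCACGTGA occurred in 4 members (12.9%; Ctsa, Ctsd, Mcoln1 and Cln3) and in 1.12% of genes. The shorter ACGTG, the core of the element that hypoxia-inducible factors bind, lies inside every CACGTG and occurred in 13 members (41.9%), the 12 above and Neu1, against 21.8% of genes. The member promoters had a median GC content of 57.8%, against 52.7% over all promoters.

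The stretches below hold the matches before the start of the 4 members with the longer form, of Lamp1, which had 4 E-boxes, and of Ctsf and Gaa, whose signals fell in the comparison that follows. A second E-box of Ctsa lay after its start and is not shown. The stretches are written 5′ to 3′ on the gene's strand, and have the match in capitals.
Cln3 (chr7:126583332-126583405, minus strand): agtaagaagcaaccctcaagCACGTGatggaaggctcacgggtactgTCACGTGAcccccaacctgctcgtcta
Mcoln1 (chr8:3500428-3500499, plus strand): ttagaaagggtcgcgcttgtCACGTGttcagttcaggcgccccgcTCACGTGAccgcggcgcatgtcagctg
Ctsd (chr7:142387900-142387945, minus strand): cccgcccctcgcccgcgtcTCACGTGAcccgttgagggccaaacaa
Ctsd, farther from the start (chr7:142388047-142388077, minus strand): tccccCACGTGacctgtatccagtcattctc
Ctsa (chr2:164833741-164833772, plus strand): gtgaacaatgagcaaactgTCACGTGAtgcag
Lamp1 (chr8:13159080-13159160, plus strand): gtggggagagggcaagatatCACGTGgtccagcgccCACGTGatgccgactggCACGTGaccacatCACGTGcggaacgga
Ctsf (chr19:4855066-4855111, plus strand): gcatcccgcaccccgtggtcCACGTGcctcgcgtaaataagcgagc
Gaa (chr11:119267803-119267848, plus strand): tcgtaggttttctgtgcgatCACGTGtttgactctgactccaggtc
The letters CACGTG started 12 bases before the start in Ctsa, 79 in Ctsf and 140 in Gaa. In Lamp1 they ran from 61 to 15 bases before it. A match describes these letters and not a bound site.

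All signals below are log2 signals from which the log2 signal at the array's 75th percentile was subtracted, so 0 is the level of that percentile. They are compared between hearts and never between genes. Per array, 46.4% to 51.0% of probes lay well above background and 0 were saturated. A gene was called when its Benjamini-Hochberg adjusted p in limma, over all 20027 genes and features tested, was under 0.05. Egln1 fell by 1.23 on the log2 scale (adjusted p = 0.00654) in the KO-labelled hearts, whereas Egln3, also a target of hypoxia-inducible factors, rose by 1.98 (adjusted p = 0.00166), against its label if its probe lies in the deleted part, which is not known. The cardiomyocyte markers listed, 12 of 12, were above background, so the tissue matched its label. All arrays shared 1 slide and 1 scan, but control and KO-labelled arrays sat in different columns of it, so position and group cannot be told apart.

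The lysosomal genes did not move as one block. Of the 34 tested, 10 were higher in the KO-labelled hearts, led by the cathepsins Ctsk (3.48-fold) and Ctsz (2.45-fold) and by the glucuronidase Gusb (1.99-fold). Another 5 were lower, led by cathepsin F (Ctsf, 2.35-fold) and prosaposin (Psap, 1.69-fold). The other 19 were not called, among them Lamp1, Lamp2, Ctsd and Ctsl. The higher members were 29.4% of those tested, against 16.1% of all features, and the lower members were 14.7%, against 23.0% (39.0% of all features were called in either direction). Among the 13198 tested genes with a symbol, which all members have, 19.1% were higher and 22.9% lower. The median log2 difference was 0.27 for the 34 members and -0.11 for all features. The groups did not overlap for 23 members (16 higher and 7 lower), where 55.8% of all features did not overlap, 22.7% higher and 33.1% lower.

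**Figure D1:**
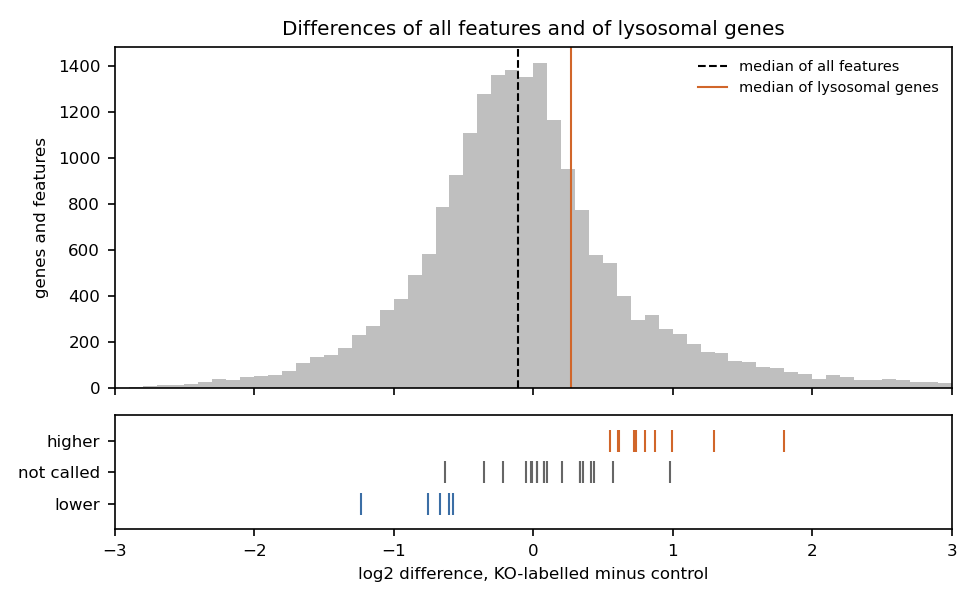
The upper panel is a histogram of the log2 difference, KO-labelled minus control, over all 20027 genes and features tested (174 beyond 3 in size are not drawn). The lower panel marks the 34 lysosomal genes by call, and their median of 0.27 lies to the right of the median of -0.11 of all features.

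How the arrays were scaled bore on the lower calls. With the signals set to 7 spike-in probes instead of the 75th percentile, 9 members were higher and 1 lower. The median difference was then 0.52 for members and 0.13 for all features. The share of higher among all called features was 60.4% in place of 41.1% (55.3% with cyclic loess). Leaving out control replicate 1 left 5 higher and 2 lower members, leaving out control replicate 3 left 5 and 3, and leaving out KO-labelled replicate 3 left 6 and 2.

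**Figure D2:**
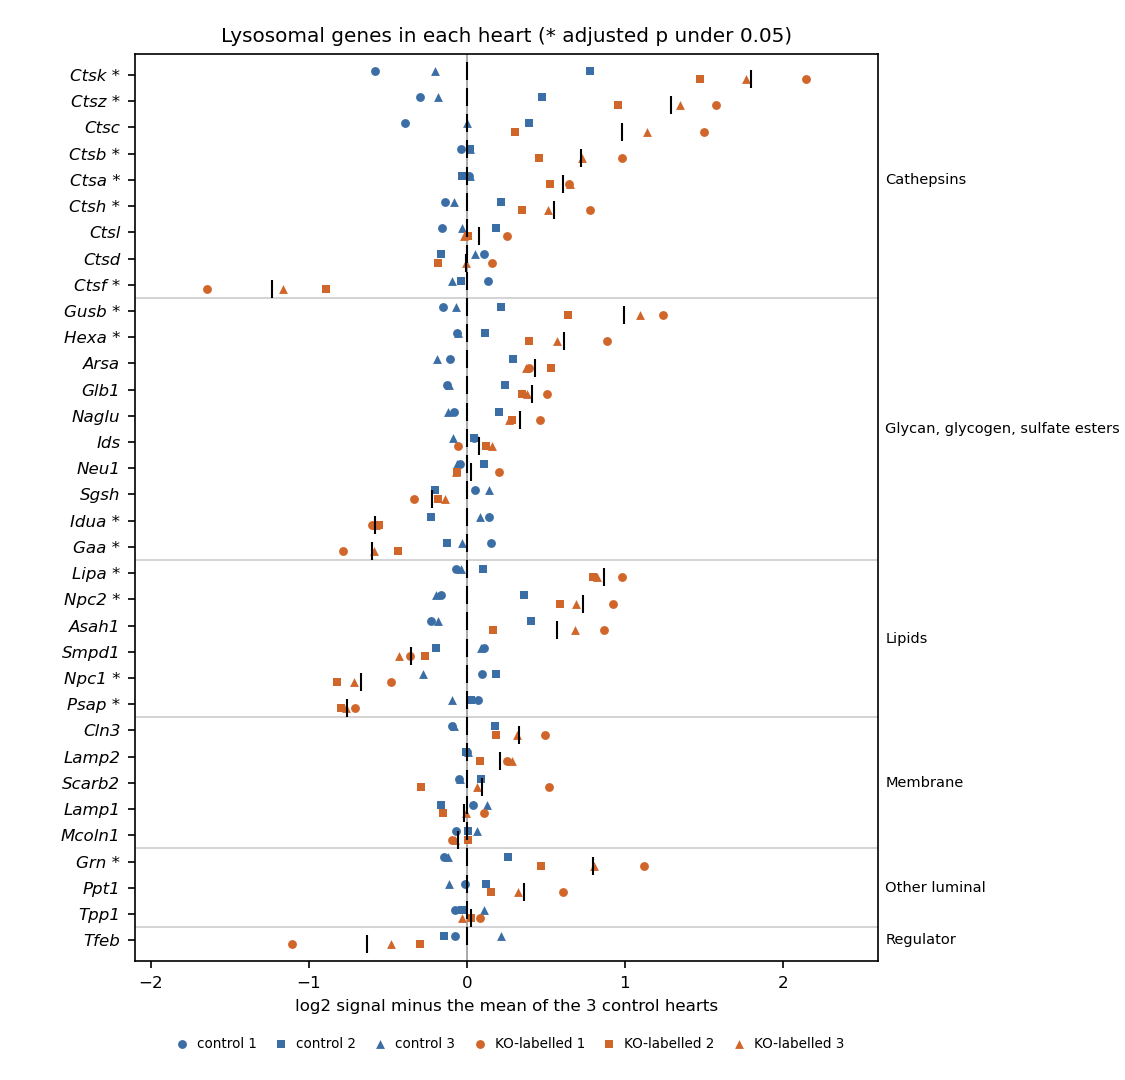
Each row is a lysosomal gene, grouped by role, and each point is 1 heart's log2 signal minus the mean of the 3 control hearts (blue, control; orange, KO-labelled; circle, square and triangle for replicates 1, 2 and 3). Black bars mark group means and a star an adjusted p under 0.05; Ctsk, Ctsz and Gusb lie farthest right and Ctsf farthest left.

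The cathepsins, the main proteases of the lysosome, gave 5 of the 10 higher calls and 1 of the 5 lower calls among 9 tested (55.6% higher and 11.1% lower, where all features gave 16.1% and 23.0%), with a median log2 difference of 0.61. Ctsk (NM_007802), a collagen-degrading cysteine protease best known from osteoclasts, had signals of 1.14, 2.50 and 1.52 in control replicates 1, 2 and 3 and of 3.87, 3.20 and 3.49 in the KO-labelled hearts. Every KO-labelled heart lay above every control heart, and control replicate 2 was the highest control. The difference was 1.80 ± 0.36 (SE, n = 3 per group; limma adjusted p = 0.0114). Ctsz (NM_022325), a carboxypeptidase of myeloid and many other cells, read 3.40, 4.17 and 3.51 in control hearts against 5.27, 4.65 and 5.04 in KO-labelled hearts. The order of the hearts was the same as for Ctsk, with control replicate 2 nearest to the other group. Its difference was 1.30 ± 0.26 (SE; limma adjusted p = 0.0105).

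Ctsb (NM_007798), an abundant cysteine protease, was very even in the controls at 6.36, 6.41 and 6.41, and reached 7.38, 6.85 and 7.12 in the KO-labelled hearts (0.72 ± 0.16 SE, limma adjusted p = 0.0138). Ctsa (NM_008906), a carboxypeptidase that also protects beta-galactosidase and neuraminidase 1, was as even, at 6.08, 6.03 and 6.09 against 6.71, 6.59 and 6.72. Its difference of 0.61 ± 0.11 (SE) had a limma adjusted p of 0.00746. For both genes the control hearts lay close together and below every KO-labelled heart. A second, dimmer Ctsa probe read 0.41 higher (adjusted p = 0.0822 over every probe) and was not called. Ctsh (NM_007801), an aminopeptidase, read 4.90, 5.26 and 4.96 against 5.82, 5.39 and 5.55, with control replicate 2 close to KO-labelled replicate 2 (0.55 ± 0.16 SE, limma adjusted p = 0.0387).

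Ctsf (NM_019861), a cysteine protease, was the only cathepsin that fell. Its signals were 2.91, 2.74 and 2.68 in control hearts against 1.13, 1.88 and 1.61 in KO-labelled hearts. The groups lay well apart, and KO-labelled replicate 1 was lowest. The fitted difference was -1.23 (95% interval -1.72 to -0.74; limma adjusted p = 0.00647).

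The remaining cathepsins were not called. Ctsc, which activates the serine proteases of leukocytes, read 1.20, 1.99 and 1.60 in control hearts against 3.10, 1.90 and 2.74 in KO-labelled hearts. KO-labelled replicate 2 lay among the controls, and the difference of 0.98 had a wide interval of 0.16 to 1.80 (limma adjusted p = 0.0608). Ctsl, a cysteine protease needed for normal heart muscle in mice, differed by 0.08 (95% interval -0.26 to 0.43). Ctsd, the main aspartic protease, differed by -0.01 on its brighter probe (-0.35 to 0.33), with controls at 7.84, 7.57 and 7.79 and KO-labelled hearts at 7.89, 7.55 and 7.73. A second Ctsd probe differed by -0.47 (adjusted p = 0.143 over every probe), so its probes did not give 1 value.

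Of the enzymes of glycan, glycogen and sulfate ester breakdown, 10 of 11 were tested, 2 were higher and 2 lower (20% each), shares near those of all features. Gusb (NM_010368), beta-glucuronidase, read 2.18, 2.55 and 2.26 in control hearts against 3.58, 2.97 and 3.43 in KO-labelled hearts. The groups were apart, with a difference of 0.99 ± 0.19 (SE; limma adjusted p = 0.0101). Hexa (NM_010421), the ganglioside-degrading enzyme lost in Tay-Sachs disease, read 3.95, 4.13 and 3.96 against 4.90, 4.41 and 4.58 (0.62 ± 0.16 SE, limma adjusted p = 0.0233). For both Gusb and Hexa, KO-labelled replicate 1 was the highest heart and KO-labelled replicate 2 the lowest of its group.

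Gaa (NM_008064), the enzyme that frees glucose from glycogen in the lysosome, had signals of 6.31, 6.04 and 6.13 in control hearts against 5.38, 5.73 and 5.57 in KO-labelled hearts. Its difference was -0.60 (95% interval -0.94 to -0.26; limma adjusted p = 0.0187). A second Gaa probe read 0.20, 0.16 and -0.19 against -0.91, -0.83 and -0.85 and differed by -0.92 (adjusted p = 0.00547 over every probe). On both probes every KO-labelled heart lay below every control heart. Idua (NM_008325), which removes iduronic acid from heparan and dermatan sulfate, read 5.39, 5.02 and 5.33 against 4.65, 4.69 and 4.67. The difference was -0.58 (limma adjusted p = 0.0178), and its second probe gave -0.57 (adjusted p = 0.0168 over every probe).

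The other enzymes of this class did not pass. Arsa, which removes sulfate from sulfatide, differed by 0.43 (limma adjusted p = 0.0701), Glb1, lysosomal beta-galactosidase, by 0.41 (0.0593) and Naglu, an enzyme of heparan sulfate breakdown, by 0.34 (0.0916). In each of these 3 genes the KO-labelled hearts all lay above the controls, although the test was not passed. Ids, iduronate 2-sulfatase, differed by 0.08 (95% interval -0.21 to 0.36) and Neu1, which removes sialic acid, by 0.03 (-0.29 to 0.34). Sgsh, heparan N-sulfatase, differed by -0.22 on its brighter probe and by 0.43 on a dimmer one, neither called, so no direction can be given. The 2 Arsb probes differed by 0.26 and 0.25, near background and untested.

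Lipid-handling members split evenly, with 2 higher, 2 lower and 2 not called. Each direction was 33.3% of the 6 tested, where all features gave 16.1% higher and 23.0% lower. Lipa (NM_021460), the acid lipase that hydrolyses cholesteryl esters and triglycerides, read 1.83, 2.00 and 1.86 in control hearts against 2.88, 2.70 and 2.72 in KO-labelled hearts. Both groups were narrow and well apart (0.87 ± 0.12 SE, limma adjusted p = 0.00395). Npc2 (NM_023409) and Npc1 (NM_008720) hand cholesterol on in turn, Npc2 as the soluble carrier and Npc1 as the membrane protein that exports it. They moved in opposite directions. Npc2 read 3.28, 3.80 and 3.25 against 4.37, 4.03 and 4.14 (0.73, limma adjusted p = 0.024). Npc1 read -0.07, 0.02 and -0.44 against -0.64, -0.98 and -0.88 (-0.67, limma adjusted p = 0.0223). Neither gene's groups overlapped.

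Psap (NM_011179), the precursor of the saposins that assist sphingolipid breakdown, gave 6.37, 6.32 and 6.20 in control hearts against 5.59, 5.50 and 5.53 in KO-labelled hearts. It was among the most even members within each group (-0.76 ± 0.11 SE, limma adjusted p = 0.00467). Asah1, acid ceramidase, differed by 0.57 with overlapping groups (limma adjusted p = 0.11), and Smpd1, acid sphingomyelinase, by -0.35 without overlap (limma adjusted p = 0.0734).

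None of the 5 membrane proteins was called, where 39.0% of all features were. Lamp1 and Lamp2, the abundant glycoproteins that line the membrane, differed by -0.02 (95% interval -0.34 to 0.31) and 0.21 (-0.06 to 0.48). Lamp1 read 7.70, 7.49 and 7.78 against 7.77, 7.51 and 7.65, so the groups were interleaved. Lamp2 read 4.34, 4.33 and 4.35 against 4.60, 4.42 and 4.62, with the KO-labelled hearts all above the controls on the probe used. Its second probe differed by 0.37 with overlap. Scarb2, the receptor that carries glucocerebrosidase to the lysosome, differed by 0.10 (-0.41 to 0.61) and Mcoln1, a calcium channel, by -0.05 (-0.31 to 0.20). Cln3, mutated in juvenile Batten disease, differed by 0.33 (limma adjusted p = 0.101) on 1 probe and by -0.06 on another.

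Of the 3 other luminal proteins 1 rose (33.3%, against 16.1% of all features). Grn (NM_008175), progranulin, a secreted protein that is also delivered to lysosomes, read 4.17, 4.58 and 4.20 in control hearts against 5.44, 4.79 and 5.12 in KO-labelled hearts. Control replicate 2 lay close below KO-labelled replicate 2, and the difference was 0.80 ± 0.20 (SE; limma adjusted p = 0.0236). Ppt1, which removes fatty acids from proteins, differed by 0.36 (limma adjusted p = 0.105) and the protease Tpp1 by 0.02 (95% interval -0.24 to 0.29).

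Tfeb (NM_001161722), the regulator, read 1.23, 1.17 and 1.53 in control hearts against 0.20, 1.01 and 0.83 in KO-labelled hearts. All KO-labelled hearts lay below the controls, but they were widely spread and the difference of -0.63 (95% interval -1.18 to -0.07) was not called (limma adjusted p = 0.071). Among members with a promoter entry, the E-box shown above was present in 1 of 8 higher members (Ctsa), 2 of 4 lower members (Ctsf and Gaa) and 9 of 18 that were not called. Of the 5 members with more than 1 E-box, Ctsa was higher and Ctsd, Mcoln1, Cln3 and Lamp1 were not called.

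**Figure D3:**
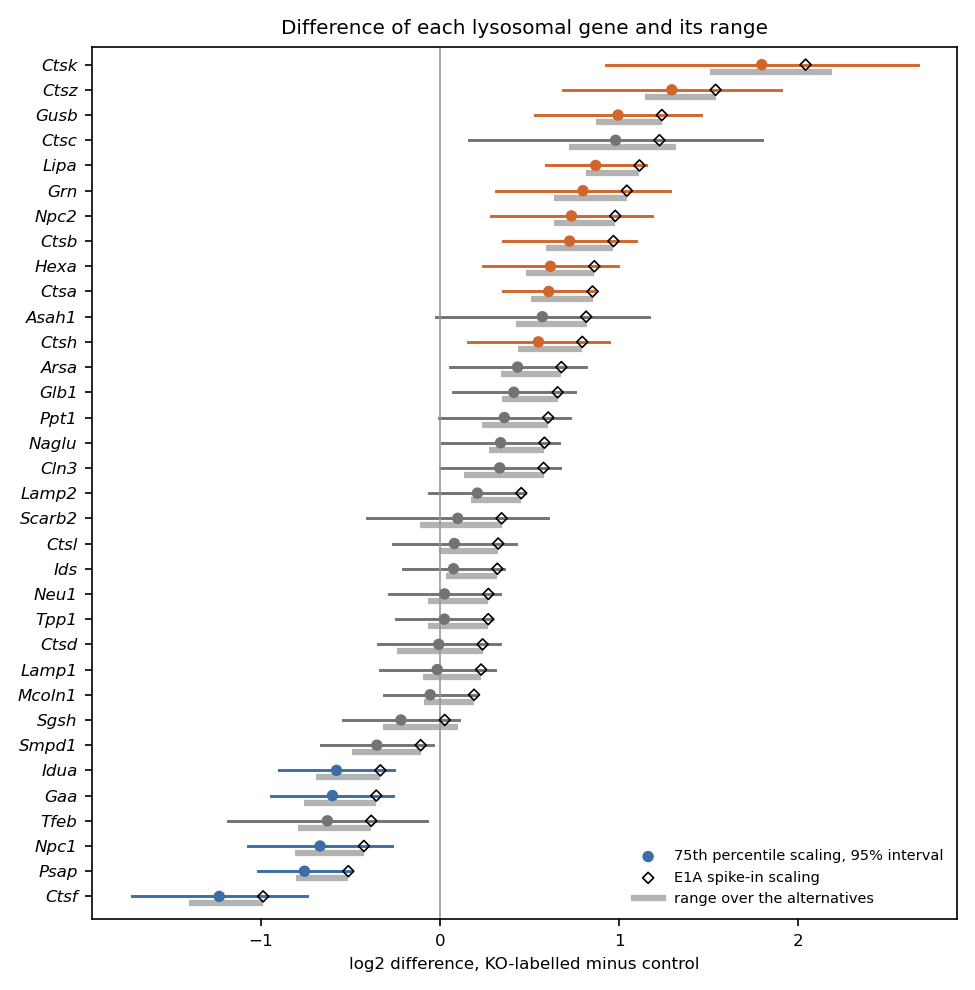
Points give each lysosomal gene's log2 difference, KO-labelled minus control, with its 95% interval (orange, higher; blue, lower; grey, not called), open diamonds the difference after spike-in scaling, and grey bars the range over the alternatives. Spike-in scaling moves every gene to the right, and Ctsf is the one lower call it keeps.

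Calls of single members differed in how they held. Of the 10 higher calls, those of Ctsa, Ctsk, Ctsz, Gusb and Lipa were kept under all 19 alternatives at the 0.05 threshold, and of the 5 lower calls that of Ctsf was. Ctsb, Ctsh, Grn, Hexa and Npc2 each lost the call under at least 1, with highest adjusted p-values of 0.0547, 0.129, 0.0844, 0.083 and 0.0871. Psap, Gaa, Idua and Npc1 lost it with spike-in scaling, at differences of -0.51, -0.36, -0.33 and -0.43 (limma adjusted p = 0.0675, 0.0904, 0.0758 and 0.232). Some members not called gained a call, Glb1 under 6 of the 19 alternatives, Ctsc under 4, and Arsa, Asah1 and Lamp2 under 3 each. Cln3, Naglu, Smpd1 and Tfeb did so under 2 each, and Ppt1 and Sgsh under 1 each. Lamp2 and Cln3 are membrane proteins. No called member changed direction.

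The same hearts stood out across members. Control replicate 2 was the highest control for 8 of the 10 higher members, and KO-labelled replicate 1 the highest KO-labelled heart for 9 of them. Over all 34 tested members these hearts were the highest of their group for 20 and 23. They also had the highest 75th percentile signals before scaling. Those signals were 147, 201 and 148 in control hearts and 235, 187 and 198 in KO-labelled hearts. The scaling removed them from every value, so they do not show whether the order is particular to these genes. Relative to the control mean, the median of these 10 genes was -0.14, 0.22 and -0.07 in control hearts against 0.98, 0.56 and 0.77 in KO-labelled hearts. The median of the 19 members not called was -0.07, 0.09 and -0.03 against 0.25, 0.03 and 0.07. The direction of the first of these sets follows from how it was chosen, and the spread between hearts is what these values describe.

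Markers of other cells moved in the same hearts. In whole hearts, fewer cells of a type and less RNA per cell cannot be told apart. Of 18 macrophage markers 10 were higher (Ccr2, Adgre1, Fcgr1, Aif1, Ptprc, C1qb, C1qc, Lyz1, C1qa and Csf1r), 4 were lower (Timd4, Lyve1, Cd163 and Itgam, 0 with spike-in scaling), and none was below background in every heart. All features were called higher in 16.1% and lower in 23.0% of cases. Timd4 was not well above background in any KO-labelled heart, and Ccr2 was so in 1 of 3 controls, so both passed the filter through the group where they are high. The summed linear signal of the list, in units of the array's 75th percentile, was 148, 201 and 164 in control hearts against 355, 227 and 309 in KO-labelled hearts. Here too control replicate 2 was the highest control and KO-labelled replicates 1 and 2 the highest and lowest of their group. The same held for the fibroblast sums below, so it is not particular to macrophage markers.

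Fibroblast markers gave 7 higher and 0 lower calls of 10, and their summed signal was 470, 772 and 423 against 1198, 1074 and 1148. For this and each list below, the share over all features was 16.1% higher and 23.0% lower. Cardiomyocyte markers gave 9 lower and 0 higher calls of 12 (4 lower with cyclic loess), with sums of 13476, 9868 and 12798 against 6624, 8129 and 8149. Smooth muscle and pericyte markers gave 4 higher and 2 lower calls of 10 (sums 297 to 304 against 328 to 493). The gap between these sums rests on Tagln (1.42) and Des (1.05) and is not a rise of the list. Its median log2 difference was 0.17. Neutrophil and mast cell markers (1 higher of 9) and endothelial markers (1 lower of 10) had sums that overlapped between groups, as had adipocyte markers (0 called of 6) and erythroid markers (1 lower of 7). Lymphocyte markers gave 1 higher call of 5 tested (sums 6.26 to 8.55 against 7.49 to 18.8). It was Cd3d, above background in 1 of 3 controls, and no lymphocyte marker was called with normexp, with the deposited table or among probes above background in all 6 hearts. Klrb1c and Ncr1 were not above background in any heart.

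Osteoclast markers were read because Ctsk is one. Acp5 rose, as the only call among 4 tested, a call lost when control replicate 3 or any KO-labelled heart was left out. Dcstamp and Calcr were not above background in any heart. The summed signal was 3.90 to 8.19 in the controls and 10.7 to 21.7 in the KO-labelled hearts. This gap rests on Acp5 and is not a rise of the list. The list's median log2 difference was -0.03, and Oscar (-0.33), Nfatc1 (-0.14) and Ocstamp (0.09) were not called. The part of any of these cell types in the lysosomal differences was not tested.

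**Figure D4:**
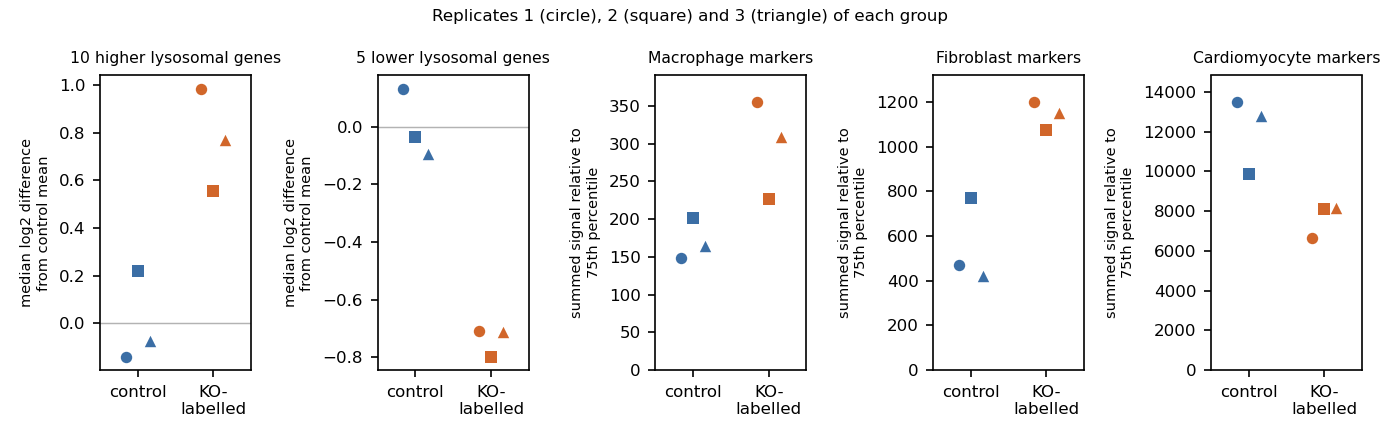
The first panels show the median log2 difference from the control mean of the 10 higher and the 5 lower lysosomal genes in each heart, and the others the summed signal of macrophage, fibroblast and cardiomyocyte markers relative to the array's 75th percentile. Among the KO-labelled hearts replicate 1 (circle) is highest for the higher genes (0.98), macrophage markers (355) and fibroblast markers (1198). It is lowest for cardiomyocyte markers (6624). It is not lowest for the 5 lower genes, at -0.709 against -0.798 and -0.714 in KO-labelled replicates 2 and 3.

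Other genes of the pathway were read from lists. Of 31 other lysosomal hydrolases 9 were higher (29.0%, against 16.1% of all features) and 2 lower (6.45%, against 23.0%). The lower ones were Aga (-0.51) and Epdr1 (-0.47). The list's median log2 difference was 0.40, against -0.11 over all features. Ctss, a cathepsin of antigen-presenting cells, read 2.72, 3.80 and 2.76 in control hearts against 6.0, 4.69 and 5.41 in KO-labelled hearts and was 4.84-fold higher (limma adjusted p = 0.00833). The aspartic protease Napsa rose by 2.50 (limma adjusted p = 0.00822), but it was above background in 2 of 3 controls and its difference was 0.96 with normexp background correction.

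The machinery that acidifies and supplies the lysosome was called higher about as often as all features (16.1%). It was called lower less often than all features (23.0%). Of 20 genes of the vacuolar proton pump 3 were higher (15.0%) and 1 lower (5%). Atp6v0a4, an a subunit of the pump best known from kidney, rose by 3.02 (limma adjusted p = 0.00228), from above background in 1 of 3 controls, and by 0.95 with normexp. Atp6ap2, an accessory subunit, rose by 0.64 (0.022), Tcirg1, the a subunit of osteoclast pumps, by 1.03 (0.0261), and Atp6v1e1 fell by 0.46 on the log2 scale (0.025). Of 21 sorting genes 3 were higher (14.3%), namely Ap3s1 (1.02, limma adjusted p = 0.00415), Sorl1 (0.87, 0.0075) and Ap1s1 (0.58, 0.0352). Another 2 were lower (9.52%), Gga2 (-0.36, limma adjusted p = 0.0346) and Ap3m1 (-0.41, 0.0481). These sorting genes encode adaptor subunits and receptors that load cargo bound for the lysosome. The mannose 6-phosphate receptors M6pr and Igf2r were not among the calls.

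Of 22 other membrane proteins and transporters 4 were higher and 4 lower (18.2% each). Of all features 16.1% were higher and 23.0% lower. The 4 higher were Laptm5 (1.23, limma adjusted p = 0.00431), a protein of blood-derived cells, the channel Mcoln2 (1.87, 0.0101; 0.76 with normexp, and above background in 2 of 3 controls), the tetraspanin Cd63 (0.72, 0.0239) and the metal transporter Slc11a1 (0.92, 0.0481). The 4 lower were the sialic acid exporter Slc17a5 (-0.75, 0.00793), Abca2 (-0.50, 0.022), Mfsd8 (-0.61, 0.035) and Abcb9 (-0.60, 0.0381). Averaging the probes of a gene took Slc17a5 to -0.26 and out of the calls (adjusted p = 0.114). Cathepsin inhibitors had a median of 0.88 over 5 tested of 9 listed, against -0.11 over all features. They gave 0 lower and 4 higher calls (80% higher, against 16.1% of all features). The higher ones were Serpinb1a (3.93, limma adjusted p = 0.00661), Serpinb6a (0.88, 0.0298), Cstb (0.84, 0.0364) and Cst6 (0.91, 0.0447). Over the alternatives the higher inhibitors numbered 1 to 5. Leaving out control replicate 1, control replicate 3 or KO-labelled replicate 3 left 1.

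The genes that govern lysosome formation and feed it through autophagy gave lower calls and no higher ones. Of 18 genes of the TFEB family, mTORC1 and nutrient sensing 5 were lower (27.8%), a share near the 23.0% of all features. Mitf, a relative of Tfeb, read 4.96, 4.69 and 4.88 in control hearts against 3.26, 3.60 and 3.66 in KO-labelled hearts (-1.34, limma adjusted p = 0.00288). Flcn, which acts on the Rag GTPases at the lysosome, fell by 0.92 on the log2 scale (0.011), its partner Fnip1 by 0.58 (0.0351), the kinase Mtor by 0.50 (0.013) and the scaffold subunit Lamtor3 by 0.43 (0.0428). Of 30 core autophagy genes 11 were lower (36.7%, against the same 23.0%). Optn, a receptor that brings cargo to autophagosomes, read 0.96, 0.82 and 0.77 against -0.59, -0.24 and -0.59 (-1.32, limma adjusted p = 0.0025). Nbr1, another such receptor, and Map1lc3a, a protein of the autophagosome membrane, each fell by 0.85 on the log2 scale (limma adjusted p = 0.00827 and 0.00834).

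For Mitf and Optn the groups were far apart relative to their spread. With spike-in scaling the lower calls numbered 2 in the TFEB family list and 4 in the autophagy list. The list medians moved from -0.32 to -0.08 and from -0.27 to -0.03. The median of all features moved alike, from -0.11 to 0.13, so both lists stayed below it. With cyclic loess each list gave 1 higher call, beside 3 lower in the TFEB family list and 11 in the autophagy list. From each list up to 3 called genes with the smallest p-values are named by rule, and any other called gene was named after its value was seen.

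**Figure D5:**
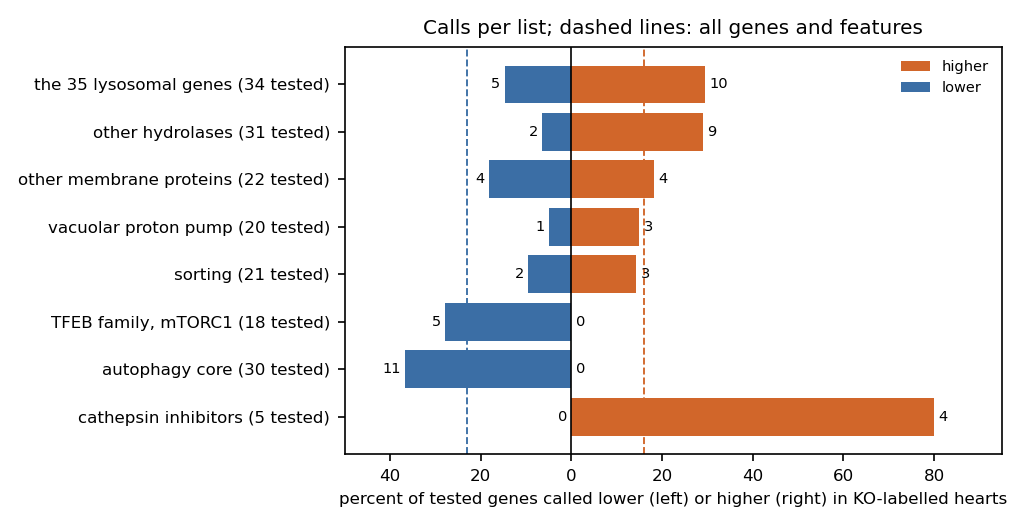
Bars give the percent of each list's tested genes that were called lower (left, blue) or higher (right, orange), with the counts at the bar ends, and dashed lines the percent over all features (23.0% lower, 16.1% higher). The lysosomal genes and other hydrolases extend farther right than the line for higher calls, and autophagy genes farther left than the line for lower calls.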

How the data were processed

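Hearts of 6 mice were measured, 3 per group, and per the labels they are biological replicates. The deposited scanner files hold each spot's intensity, unlogged. Per the file headers, Agilent Feature Extraction (version 11.0.1.1) had subtracted the background and applied no scaling between arrays, and the same deposited files hold its other columns of spot flags. The deposited value table holds log2 values and served as an alternative; how the authors normalized it was not given in the sources used here. Set against the scanner files, 94.9% of its array-to-array differences matched, up to a constant for each array, within 0.001. Its centring stays unknown (the medians of its columns were 0.09, -0.02 and 0.07 for controls and -0.04, -0.05 and -0.02 for KO-labelled hearts).

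Processed signals were taken to log2, spots flagged as outliers were dropped, repeated spots were averaged, and the array's 75th percentile was subtracted. Of 55681 distinct probes 55608 were kept, and RefSeq accessions (tables of GRCm38.p6) named 26551. A probe was used if it was well above background in all hearts of either group, and the brightest such probe stood for its gene. Models were fitted with limma 3.58.1 (in R 4.3.3, with the package data.table at 1.17.8) on 20027 features, with Benjamini-Hochberg adjustment, after the scripts had been tested on simulated data. Exact permutation of 3 against 3 hearts cannot give a p below 0.1. The number of arrays limits the precision, and the 95% intervals come from the fit.

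The alternatives changed the background correction (normexp, offset 50), the scaling (quantile, median, cyclic loess, spike-in), the source (deposited table), the filter, the probe rule, the variance model, the weights, the block, the hearts included and the threshold (0.01). Normexp used the median signal because these files hold no mean signal. The members and lists were chosen with earlier results of these data known. All members were named. Each pathway list gave at most 3 called genes, those of smallest p, and lists with under 2 called genes would have given their first 2 by p. One gene that this rule takes is not reported here.

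The deviations of same-numbered hearts from their group means correlated across features at -0.15, -0.13 and -0.10. Positive values joined control 2 with KO-labelled 1 (0.24), control 3 with KO-labelled 2 (0.24) and control 1 with KO-labelled 3 (0.27). The remaining values were negative. Deviations within a group cancel out, so some values had to be negative. These correlations therefore cannot show whether replicate numbers pair the hearts. What these hearts share was not tested.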

Additional observations from a re-analysis of the deposited data

How the results depend on the processing

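With the 75th percentile scaling 7818 features were called, 10 lysosomal members were higher, 5 were lower and their median difference was 0.27. Cyclic loess gave a member median of 0.41. Spike-in scaling gave 0.52 and left 1 lower member. These scalings moved the median of all features by 0.14 and 0.24. Without the filter on dim probes 4345 features, 5 higher and 2 lower members were called; with array weights 13713, 18 and 8; at an adjusted p of 0.01, 3093, 2 and 2. With the replicate number as a block the counts were 4854, 6 and 2. Whether the numbers pair the hearts is not known. Leaving out 1 heart at a time gave 3962 to 8673 features, 5 to 14 higher members, 2 to 6 lower members and medians of 0.21 to 0.33, with the lowest counts without control replicate 1. The other alternatives kept each of these counts within 1.5 times, and no called member reversed.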
